A study of Mus musculus with 12 samples.

Results

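The 10 genes described here encode the core of the circadian clock in mouse dermal papilla (DP) cells: Clock, Arntl, Per1, Per2, Per3, Cry1, Cry2, Nr1d1, Nr1d2 and Dbp. They were chosen by gene symbol, all 10 were found among the 14986 genes that the tables of both days list, and all 10 passed the minimum mean of 10 normalized reads in every comparison. DP cells labelled with YFP by a Cre-dependent reporter were sorted from the dissociated middle dorsal skin of control and dMF1/2 mice at postnatal days P14 and P16, all labelled as anagen, with 3 libraries in each of the 4 groups. The dMF1/2 mice are Cor-cre/+; Fgfr1Flox/Flox; Fgfr2Flox/Flox and therefore carry the deletion of both Fgf receptors in the cells in which the Corin promoter drives Cre. The control mice are labelled as wild type, while the methods of the study allow controls with Cor-cre/+ and 1 floxed copy of each receptor gene or without Cre and with floxed copies of both genes; only the former would activate the reporter, and which control gave which library is not given in the sources used here. The mice were kept on a cycle of 12 h of light, but the hour at which skin was taken is not given, and the skin then stood overnight in trypsin at 4 °C before collagenase at 37 °C and 2 rounds of sorting. The levels below are therefore those of cells that had been outside the animal for many hours. Libraries of a control and a dMF1/2 mouse of the same day share a replicate number in the labels, and the comparisons here ask whether clock gene levels differ between genotypes, between days and between these numbers.

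The clock is a feedback loop of transcription in nearly every cell of the body. The proteins encoded by Clock and Arntl (BMAL1) bind E-boxes as a pair and switch on the Per and Cry genes, whose products return to the nucleus and repress that pair. In a second loop Nr1d1 and Nr1d2 (REV-ERBα and REV-ERBβ), which are also E-box targets, repress Arntl through sites called ROREs, so that Arntl peaks roughly opposite to Nr1d1. Dbp is an E-box target whose product binds D-boxes, for example in Per genes. In skin, clock genes cycle through the day, and their activity has been linked to the progress of the hair cycle. Because Dbp and Arntl peak at opposite times, their ratio in a sample serves as a simple reading of clock phase.

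The E-boxes and related sites near the start of clock genes are shown here because they are the letters through which the 2 loops above act on these genes. RefSeq windows of 300 bases (250 before to 50 after the start of a transcript, GRCm38.p6) were found for 9 of the 10 genes, the exception being Per2. The E-box CACGTG, searched on both strands like every motif, was in the windows of Per1 and Cry1 and in 7.15% of all 32851 windows. It was also in windows of Tef, of Bhlhe41 and, at 3 places, of Ciart, which belong to the clock genes outside the 10. The D-box TTANGTAA was in 2.32% of all windows and at 2 places in that of Per3, and the RORE core TAGGTCA was in 2.61% and in that of Arntl, 31 bases after the start. The cAMP response element TGACGTCA, in 1.79% of all windows, was in none of the windows of the 10 genes. In the stretches below, 5′ to 3′ on the strand of the gene, capitals mark the motif; a match describes letters only, and no binding was measured.
Per1 E-box, chr11:69098749-69098828, + strand: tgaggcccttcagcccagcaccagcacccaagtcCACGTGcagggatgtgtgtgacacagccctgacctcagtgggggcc
Cry1 E-box, chr10:85185075-85185154, − strand: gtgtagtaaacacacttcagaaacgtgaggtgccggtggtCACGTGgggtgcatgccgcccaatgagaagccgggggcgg
Tef E-box, chr15:81802513-81802592, + strand: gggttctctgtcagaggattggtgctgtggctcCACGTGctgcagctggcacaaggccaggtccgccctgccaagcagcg
Ciart E-boxes, chr3:95882254-95882353, − strand: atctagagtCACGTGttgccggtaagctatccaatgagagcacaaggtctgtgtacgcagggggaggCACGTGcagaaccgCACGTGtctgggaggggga
Per3 D-boxes, chr4:151044806-151044885, − strand: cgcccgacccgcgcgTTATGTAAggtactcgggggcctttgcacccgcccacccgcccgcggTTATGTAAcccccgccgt
Arntl RORE, chr7:113207530-113207559, + strand: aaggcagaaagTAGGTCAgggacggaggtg

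The libraries held 19302358 to 29860750 reads in listed genes, with a median of 23062180. Of the targeted genes, Fgfr1 was at 7855 to 10108 normalized reads in control and 6451 to 7510 in dMF1/2 libraries at P14, and at 8370 to 12337 and 6121 to 7837 at P16. The log2 fold changes were -0.40 (limma's adjusted p = 0.501) and -0.50 (adjusted p = 0.130). Fgfr2 differed by -0.11 and -0.01 on the log2 scale (adjusted p = 0.974 and 0.978), and counts per whole gene do not show whether the deleted exons were lost. The DP genes Corin and Lef1 were detected in every library, whereas those of keratinocytes summed to 233 to 786 normalized reads over 11 genes, with Krt85 unlisted, those of melanocytes to 43 to 83 over 5 genes and those of immune cells to 54 to 146 over 5 genes, with Cd3e unlisted. Endothelial genes summed to 354 to 1034 over 5 genes. In addition, 3 libraries stood apart in transcripts from the Y chromosome, which summed to 102 to 126 normalized reads in P14 control replicate 2, P14 dMF1/2 replicate 2 and P16 control replicate 3 and to 2776 to 4110 in the other 9.

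All 10 clock genes were well measured. Levels were compared between genes as normalized reads per kilobase of exon, on the scaling common to the 12 libraries. Nr1d1 and Per1 were the highest, with averages over the libraries of 522 and 505 reads per kilobase. Nr1d2 (319), Cry2 (201), Cry1 (169), Dbp (145), Per2 (126), Clock (118) and Per3 (96.4) followed, and Arntl was the lowest at 42.7. On the mm10 build (GENCODE annotation), Dbp lies at chr7:45705247-45710203 (+ strand) and Arntl on the same chromosome at chr7:113207465-113314122 (+). Nr1d1 (chr11:98767932-98775333, −) and Per1 (chr11:69095217-69109960, +) share another chromosome, and Nr1d2 lies at chr14:18204054-18239127 (−). Many neighbours in this order could not be separated: Nr1d1 was above Per1 in 5 of 12 libraries, and Cry1 was above Dbp, and Dbp above Per2, in 7 of 12. The clear steps were those from Per1 to Nr1d2 and from Per3 to Arntl, each present in 11 of 12 libraries. Several of these genes overlap a neighbour in the annotation, namely Nr1d1 (Thra, opposite strand), Dbp (Sphk2, opposite strand), Arntl and Cry2 (an antisense and a non-coding gene on the opposite strand), Clock (Gm43658 and the pseudogene Ube2n-ps1, on its own strand) and Per3, which lies within a transcript of Camta1 on its own strand. The libraries were strand-specific, but the strand setting of the counting is not given in the sources used here, so reads in those overlaps are uncertain.

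**Figure D1:**
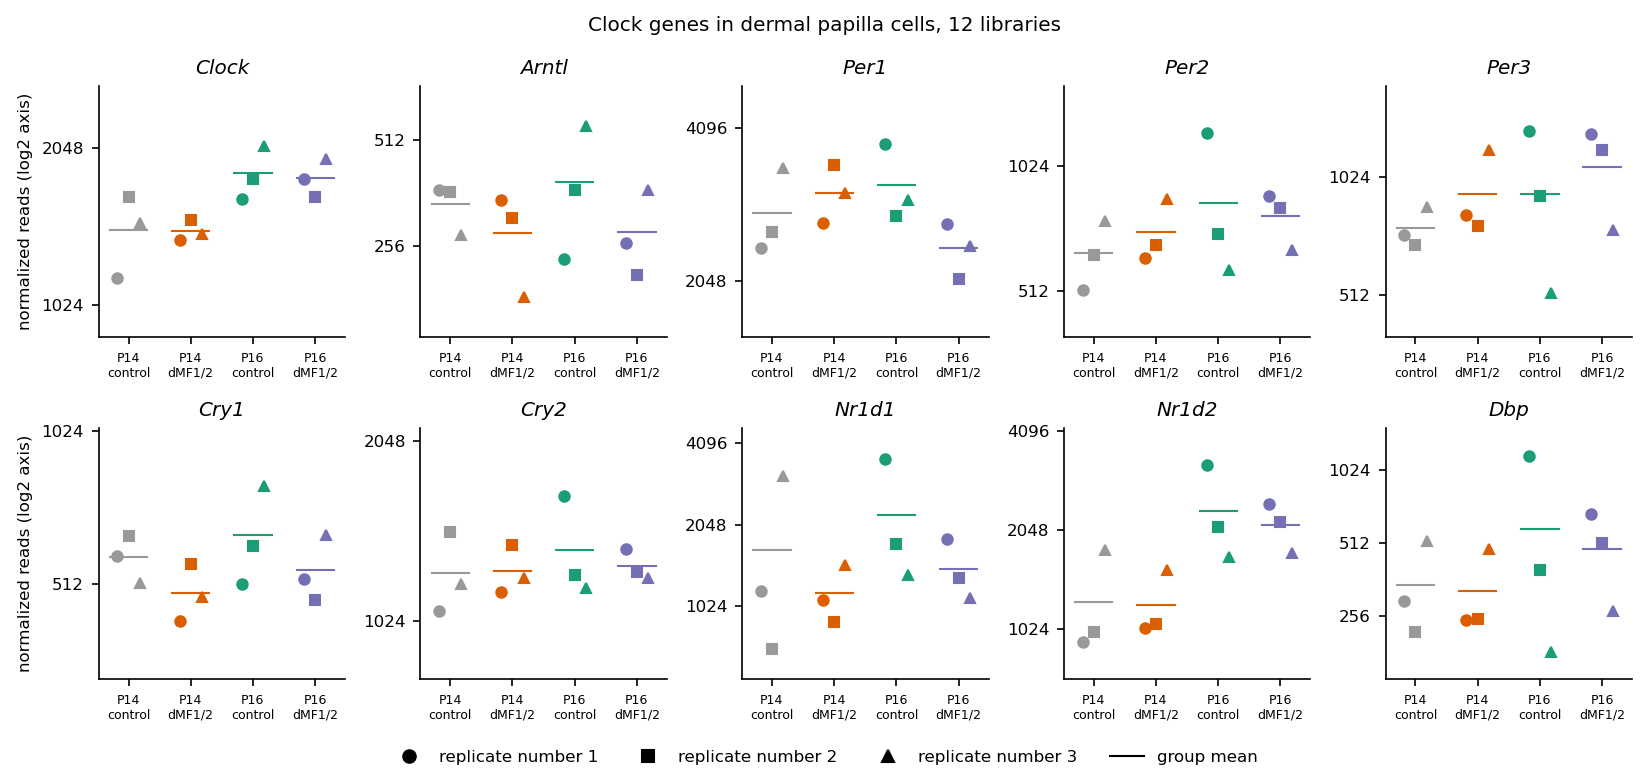
Normalized reads of the 10 clock genes in the 12 libraries, scaled together, on a log2 axis; circles, squares and triangles are replicate numbers 1, 2 and 3, and lines are group means. The triangles are the highest points for Dbp and Nr1d1 at P14 and the lowest at P16, and the order is turned for Arntl.

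Levels within a group were spread widely for the output and REV-ERB genes and for Arntl and Per3, and narrowly for Clock. Dbp, the output gene, had the largest spread of the 10. Its normalized reads were 294, 221 and 519 in P14 control replicates 1 to 3 and 247, 249 and 482 in P14 dMF1/2 replicates 1 to 3. P16 control replicates 1 to 3 held 1167, 398 and 183, and P16 dMF1/2 replicates 1 to 3 held 671, 512 and 268. Replicate 3 was thus the highest library of both genotypes at P14 and the lowest of both at P16, and the genotypes overlapped on both days. The within-group SD of Dbp was 0.86 on the log2 scale, higher than in 98.0% of 13414 genes, whose median SD was 0.19.

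Nr1d1, which represses Arntl, was highest in replicate 3 at P14 and lowest in it at P16, as Dbp was. Its levels were 1162, 713 and 3097 normalized reads in control and 1079, 892 and 1458 in dMF1/2 replicates 1 to 3 at P14. P16 control replicates 1 to 3 held 3587, 1739 and 1329, and P16 dMF1/2 replicates 1 to 3 held 1814, 1300 and 1094. P14 control replicate 3 was the highest of the P14 libraries, and the genotypes overlapped on both days. The paralogue Nr1d2 gave 935, 1001 and 1775 normalized reads in control and 1033, 1063 and 1541 in dMF1/2 replicates 1 to 3 at P14. At P16 it gave 3212, 2093 and 1691 in control and 2446, 2163 and 1745 in dMF1/2 replicates 1 to 3. The days overlapped in control mice, through replicate 3 of each day, and did not overlap in dMF1/2 mice, and replicate 3 was again highest at P14 and lowest at P16.

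Arntl, the partner of Clock, ran the other way. It was at 369, 365 and 276 normalized reads in control and 346, 307 and 184 in dMF1/2 replicates 1 to 3 at P14. At P16 it was at 236, 370 and 560 in control and 261, 212 and 369 in dMF1/2 replicates 1 to 3. Replicate 3 was therefore the lowest library of both genotypes at P14 and the highest of both at P16. Clock itself ranged from 1156 to 2065 normalized reads over the 12 libraries, and its within-group SD of 0.17 was below the median of all genes.

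Among the repressors, Per2 and Per3 followed Dbp. Per3 was at 731, 687 and 861 normalized reads in control and 821, 769 and 1198 in dMF1/2 replicates 1 to 3 at P14, and at 1342, 917 and 521 in control and 1319, 1196 and 751 in dMF1/2 replicates 1 to 3 at P16. Per2 was at 513, 623 and 756 in control and 612, 659 and 852 in dMF1/2 replicates 1 to 3 at P14, and at 1229, 700 and 574 in control and 866, 812 and 643 in dMF1/2 replicates 1 to 3 at P16. In both genes replicate 3 changed from the highest of each genotype to the lowest. Per1, which also responds rapidly to stress and hormone signals, was at 2379, 2557 and 3414 normalized reads in control and 2657, 3457 and 3053 in dMF1/2 replicates 1 to 3 at P14. At P16 it was at 3800, 2747 and 2951 in control and 2653, 2067 and 2404 in dMF1/2 replicates 1 to 3, so that the genotypes did not overlap on that day. Cry1 ranged from 434 to 797 and Cry2 from 1063 to 1656 normalized reads over the 12 libraries. Cry1 was highest in P16 control replicate 3, as Arntl was.

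The difference between Dbp and Arntl within a library does not depend on how libraries are scaled. On the log2 scale it was -0.32, -0.72 and 0.91 in P14 control and -0.48, -0.30 and 1.39 in P14 dMF1/2 replicates 1 to 3. At P16 it was 2.30, 0.10 and -1.61 in control and 1.36, 1.27 and -0.46 in dMF1/2 replicates 1 to 3. The range from -1.61 to 2.30 corresponds to a Dbp level from 0.327 to 4.95 times that of Arntl. Both ends of the range were control libraries of P16, so that the spread within 1 group covered the whole series. The group means ± SD (n = 3) were -0.05 ± 0.85 in P14 control, 0.20 ± 1.03 in P14 dMF1/2, 0.27 ± 1.96 in P16 control and 0.72 ± 1.02 in P16 dMF1/2 libraries. The differences between genotypes were 0.25 at P14 and 0.46 at P16, and those between days were 0.31 in control and 0.52 in dMF1/2 mice, all below the pooled within-group SD of 1.29.

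**Figure D2:**
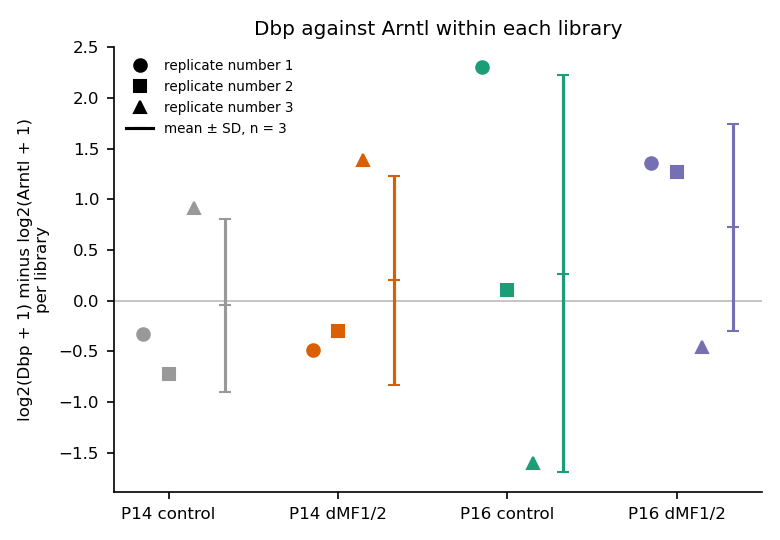
Log2 of Dbp minus log2 of Arntl in each of the 12 libraries by group; circles, squares and triangles are replicate numbers 1, 2 and 3, and bars are the mean ± SD (n = 3). P16 control libraries span -1.61 to 2.30, more than the means of the 4 groups differ, and the triangles lie highest at P14 and lowest at P16.

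Across the 12 libraries, the level of Dbp was related to those of most other clock genes, with 9 relations computed and p from permutation of the libraries. Arntl fell as Dbp rose (Pearson's r = -0.74, permutation p adjusted over the 9 relations 0.0097; Spearman's rho = -0.67, adjusted p = 0.037). Without the 2 libraries farthest from the median of Dbp, P16 control and dMF1/2 replicate 1, r was -0.81. Per3 rose with Dbp (r = 0.90, adjusted permutation p = 0.00054; rho = 0.88, adjusted p = 0.0039) and so did Per2 (r = 0.92, adjusted permutation p = 0.00054; rho = 0.85, adjusted p = 0.0039), with r of 0.87 and 0.80 without those libraries. Nr1d1 (r = 0.82, rho = 0.80, adjusted permutation p = 0.0030 and 0.0081) and Nr1d2 (r = 0.78, rho = 0.75, adjusted permutation p = 0.0060 and 0.016) rose with it too, with r of 0.68 and 0.56 without those libraries. For Clock (r = -0.05), Per1 (0.33), Cry1 (-0.53) and Cry2 (0.50) the adjusted permutation p lay between 0.116 and 0.88 for r. The share of all genes related to Dbp as strongly, across the libraries or within a day, was not computed. Such relations were not limited to clock genes. In deviations from group means, Sdk1 (r = -0.97), Vcl (-0.96) and Hdgf (0.94) followed or opposed Dbp about as closely as Per3 (0.96) and Arntl (-0.92).

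Within a day the relations had to be computed over 6 libraries. For Arntl, r was -0.77 at P14 and -0.85 at P16, with exact permutation p of 0.0597 and 0.0333 (adjusted 0.0958 and 0.075). Nr1d1 gave 0.89 and 0.83 (adjusted exact permutation p = 0.0125 and 0.0775) and Nr1d2 0.93 and 0.98 (0.0775 and 0.0083). For Per2 r was 0.72 and 0.98 (adjusted exact permutation p = 0.163 and 0.0083) and for Per3 0.75 and 0.94 (0.0958 and 0.015). All 5 thus had the same sign on both days, but only Nr1d1 passed at P14. Cry2 had r of -0.39 at P14 and 0.90 at P16 (adjusted exact permutation p = 0.487 and 0.0083), Clock -0.14 and -0.89 (0.801 and 0.0375) and Cry1 -0.35 and -0.85 (0.487 and 0.075). Libraries of the same number resembled each other, so the 12 are not fully independent and these p are too small.

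**Figure D3:**
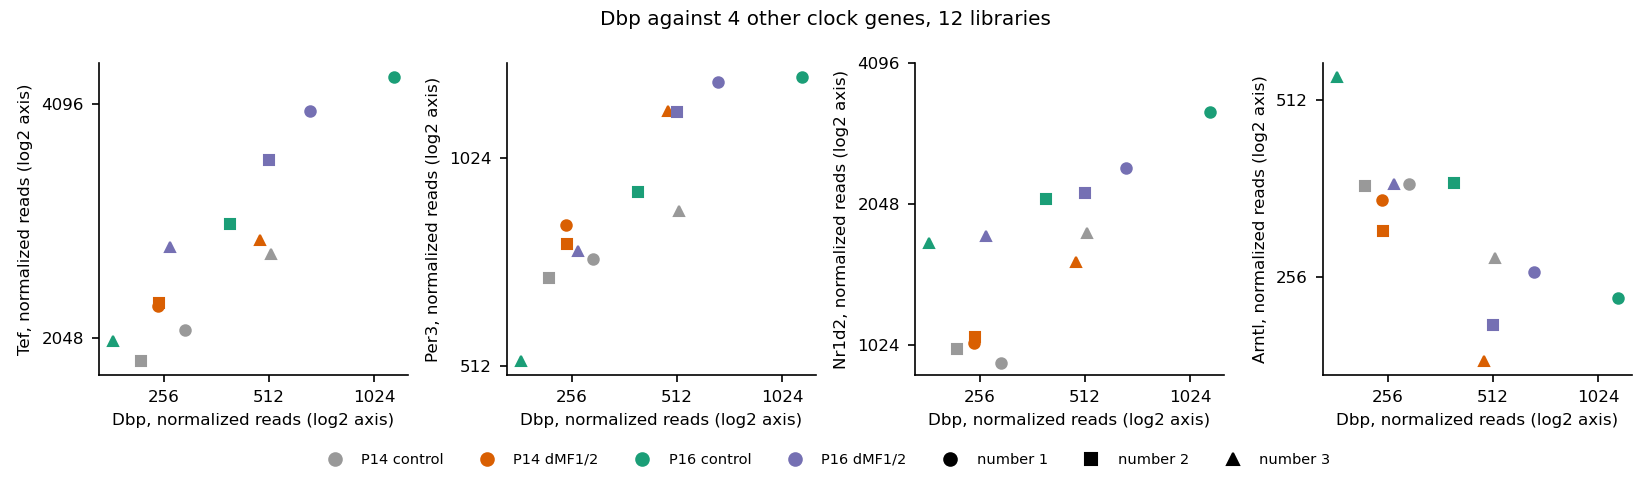
Normalized reads of Dbp against those of Tef, Per3, Nr1d2 and Arntl in the 12 libraries, on log2 axes; colours are groups and circles, squares and triangles are replicate numbers 1, 2 and 3. Tef, Per3 and Nr1d2 rise with Dbp and Arntl falls (r = -0.74).

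The first question is whether the clock genes differed between genotypes. At P14 none of the 10 passed limma's test at an adjusted p of 0.05, none did so at an unadjusted p of 0.05 (7.32% of all genes), and neither DESeq2 nor edgeR called any; 0.0525% of all 13334 genes were called. Their log2 fold changes of dMF1/2 over control ran from -0.30 for Arntl (SE 0.25, limma's adjusted p = 0.914) to 0.27 for Per3 (SE 0.18, adjusted p = 0.875). The median over the 10 was 0.01, beside 0.0048 over all genes. The intervals were narrow for Clock, with 95% limits of -0.31 and 0.33, and wide for Nr1d1, with limits of -1.46 and 0.88, in the fit without the block. None of the 10 had genotypes that did not overlap, as 12.7% of all genes did.

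At P16 again none of the 10 passed, 1 did so at an unadjusted p of 0.05 (19.0% of all genes), and neither DESeq2 nor edgeR called any; 4.32% of all 13457 genes were called. Per1 was nearest, with a log2 fold change of -0.40 (SE 0.14, limma's adjusted p = 0.175), and was the only 1 of the 10 whose genotypes did not overlap (24.5% of all genes, and 11.6% with dMF1/2 lower; exact permutation test, p = 0.1, the smallest that 3 against 3 allow). Nr1d1 differed by -0.55 (SE 0.34, adjusted p = 0.453) and Arntl by -0.41 (SE 0.31, adjusted p = 0.557). Both moved with single control libraries. Without P16 control replicate 1 the difference of Nr1d1 was -0.14 and that of Arntl -0.73, and without P16 control replicate 3 they were -0.86 and -0.11; Per1 ran from -0.49 without control replicate 2 to -0.26 without control replicate 1. Per3 differed by 0.30 and the other 6 by -0.20 (Cry1) to 0.04 (Dbp), and the median over the 10 was -0.08, beside -0.0043 over all genes.

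With the replicate number as a block, 2 of the 10 were called at P16, and 10.4% of all genes. Per1 was lower in dMF1/2 mice (log2 fold change -0.40, SE 0.07, limma's adjusted p = 0.0157), as was Nr1d1 (-0.55, SE 0.13, adjusted p = 0.0460). Nr1d1 was lower in 3 of 3 pairs, with differences of -0.97, -0.42 and -0.27 on the log2 scale. At P14 the block called none of the 10, and 1.68% of all genes. Fkbp5, a target of the glucocorticoid receptor, as Per1 also is, was lower in dMF1/2 mice at P16 by -1.04 (SE 0.10, adjusted p = 0.0040), and its normalized reads were 811, 961 and 884 in control against 415, 400 and 465 in dMF1/2 libraries. Of the 10 glucocorticoid response genes limma called only Fkbp5 at P16 (4.32% of all genes), as did edgeR. By limma 7 had an unadjusted p under 0.05 (19.0% of all genes), and DESeq2 called 6 (8.35%). The call of Fkbp5 did not hold in the joint fit of the 12 libraries (limma's adjusted p = 0.120), and its part in the difference of Per1 was not tested.

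**Figure D4:**
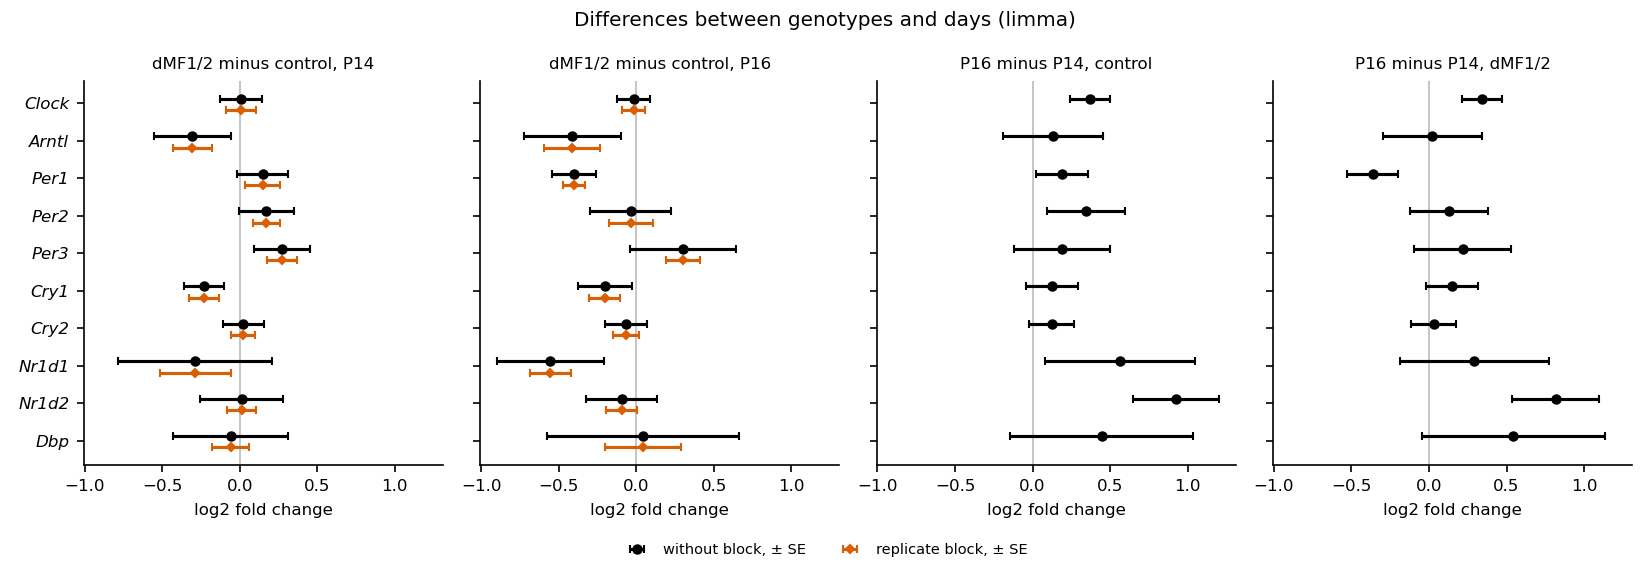
Log2 fold changes (± SE) of the 10 clock genes between genotypes at P14 and P16 and between days in control and dMF1/2 mice; black circles are without and orange diamonds with the replicate number as a block. Bars of Per1 and Nr1d1 at P16 narrow with the block, and Nr1d2 is the highest point in both comparisons of days.

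The second question is whether the clock genes differed between days. In control mice all 10 had positive log2 fold changes of P16 over P14, with a median of 0.27 beside 0.01 over all 13415 genes. Only Nr1d2 passed, with 0.92 (SE 0.28, limma's adjusted p = 0.0471); 14.5% of all genes were called and 6.26% were called as higher. The call did not hold with edgeR (adjusted p = 0.0531), in a fit of the 6 control libraries only (0.105), or without P14 control replicate 1 (0.159), P14 control replicate 2 (0.128), P16 control replicate 1 (0.168) or P16 control replicate 2 (0.0744). Clock was second, with 0.37 (SE 0.13, adjusted p = 0.0763), and was called by limma without P14 control replicate 2 (adjusted p = 0.0490). None of the 10 had days that did not overlap, as 36% of all genes did.

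In dMF1/2 mice none of the 10 passed, 3 did so at an unadjusted p of 0.05 (22.8% of all genes), and neither DESeq2 nor edgeR called any; 5.8% of all genes were called. Nr1d2 differed by 0.82 (SE 0.28, limma's adjusted p = 0.108), Clock by 0.34 (SE 0.13, adjusted p = 0.143) and Per1 by -0.36 (SE 0.16, adjusted p = 0.216). In these 3 the days did not overlap, as in 27.6% of all genes. The change between days was not called as different between genotypes for any of the 10 by limma's interaction test, which called 0% of all genes (0 of 13415, with 648 or 4.83% at an unadjusted p of 0.05; DESeq2 called 7 and edgeR 0, none of them among the 10); only Per1 had an unadjusted p under 0.05, with a difference of -0.55 (SE 0.23, adjusted p = 1). The days were scaled together, but the hour of collection, the sort and the sequencing run of each day are not given, and a difference between days and a difference in the hour of collection cannot be told apart.

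Genes that mark the DP moved between days too. In control mice 6 of 10 DP genes fell from P14 to P16, beside 8.28% of all genes, among them Alpl (log2 fold change -1.97, limma's adjusted p = 0.0027), Lef1 (-1.16, adjusted p = 0.0102) and Corin, whose promoter drives the Cre (-2.22, adjusted p = 0.0133). The count was 2 without P14 control replicate 1 and 3 in the fit of the control libraries only, with Alpl and Lef1 called in every setting. Of the markers of other cells, 4 of the 5 endothelial genes had values of -0.66 (Kdr) to 2.34 (Tie1) and did not pass by limma's test. Tie1 and Pecam1 (1.71) were close to the threshold (limma's adjusted p = 0.056 and 0.062). Both were called by DESeq2 (19.2% of all genes) and by edgeR. The other endothelial gene, Emcn, was at 2.96 to 3.77 normalized reads in P14 and 17.2 to 36.7 in P16 control libraries. It reached the minimum for testing only through the P16 libraries, so its call is not counted. Of the adipocyte genes, 2 of 4 were tested and they had opposite signs: Plin1 fell by 2.37 (adjusted p = 0.0056), and Fabp4 had a value of 0.66 (adjusted p = 0.275). Corin was at 20793 to 39219 normalized reads in P14 and 2736 to 12145 in P16 control libraries. In dMF1/2 mice limma and edgeR called none of the 10 DP genes, with 3 at an unadjusted p of 0.05 (22.8% of all genes), and DESeq2 called 3 (10% of all genes). The interaction test called none of them by any of the 3 tools, with 4 at an unadjusted p of 0.05 by limma (4.83% of all genes). At P16, Alpl (2.45, adjusted p = 0.0033) and Fgf10 (0.96, adjusted p = 0.0258) were higher and Crabp1 (-0.66, adjusted p = 0.0424) lower in dMF1/2 than in control mice, and Plin1 was higher (2.43, adjusted p = 0.0060), whereas Fabp4 had a value of -1.03 (adjusted p = 0.109). Of the endothelial genes, DESeq2 called Pecam1 and Tie1 between genotypes at P16 (8.35% of all genes), and limma and edgeR called none. Limma's values were -1.14 for Pecam1, -1.31 for Tie1 and 0.92 for Kdr. Alpl and Plin1 were called in all 15 other settings, whereas the call of Fgf10 was lost in 5 (adjusted p = 0.050 to 0.095) and that of Crabp1 in 6 (0.059 to 0.192), the joint fit and left-out libraries in both cases. Fewer DP cells in the sort and less of such RNA per cell cannot be told apart in bulk samples. The part of papilla state in the clock gene levels was not tested.

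The third question is whether clock genes differed between the replicate numbers that control and dMF1/2 libraries share. Limma's F-test over the numbers, with genotype in the fit, called Dbp (adjusted p = 0.0094) and Nr1d2 (adjusted p = 0.0138) at P14, and 7.38% of all genes. At an unadjusted p of 0.05, 7 of the 10 passed, beside 21.7% of all genes. Nr1d1 (adjusted p = 0.0513), Per2 (0.0520) and Arntl (0.0674) were close to the threshold by the same limma test. Averaged over genotypes, replicate 3 lay above the day's mean by 0.66 for Dbp, 0.78 for Nr1d1 and 0.48 for Nr1d2 and lay below it by 0.41 for Arntl on the log2 scale. In the joint fit of the 12 libraries Dbp was not called at P14 (limma's adjusted p = 0.0685) while Nr1d1 was (0.0349), and Nr1d2 was not called without control replicate 3. Without control replicate 1 or without dMF1/2 replicate 1 none of the 10 was called at P14, and without either replicate 2 there were 5.

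At P16 limma called none of the 10 and 0.401% of all genes, while 9 of the 10 passed at an unadjusted p of 0.05, beside 17.9% of all genes. DESeq2's likelihood-ratio test called 5 of the 10, namely Nr1d1, Per3, Nr1d2, Dbp and Per2, and edgeR none; DESeq2 called 2.89% of all genes. The lowest adjusted p of limma were those of Per3 (0.0599), Nr1d1 (0.0778) and Dbp (0.0819). Replicate 1 lay above the day's mean by 0.99 and replicate 3 below it by 1.01 for Dbp on the log2 scale, a difference of 3.99 times between the numbers that was larger than in 99.6% of all genes. For Per3 the numbers differed by 2.13 times, for Nr1d1 by 2.12 times and for Arntl by 1.82 times. Between 0 and 6 of the 10 were called when 1 library was left out, the 0 being without either replicate 3 and the 6 without dMF1/2 replicate 1.

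**Figure D5:**
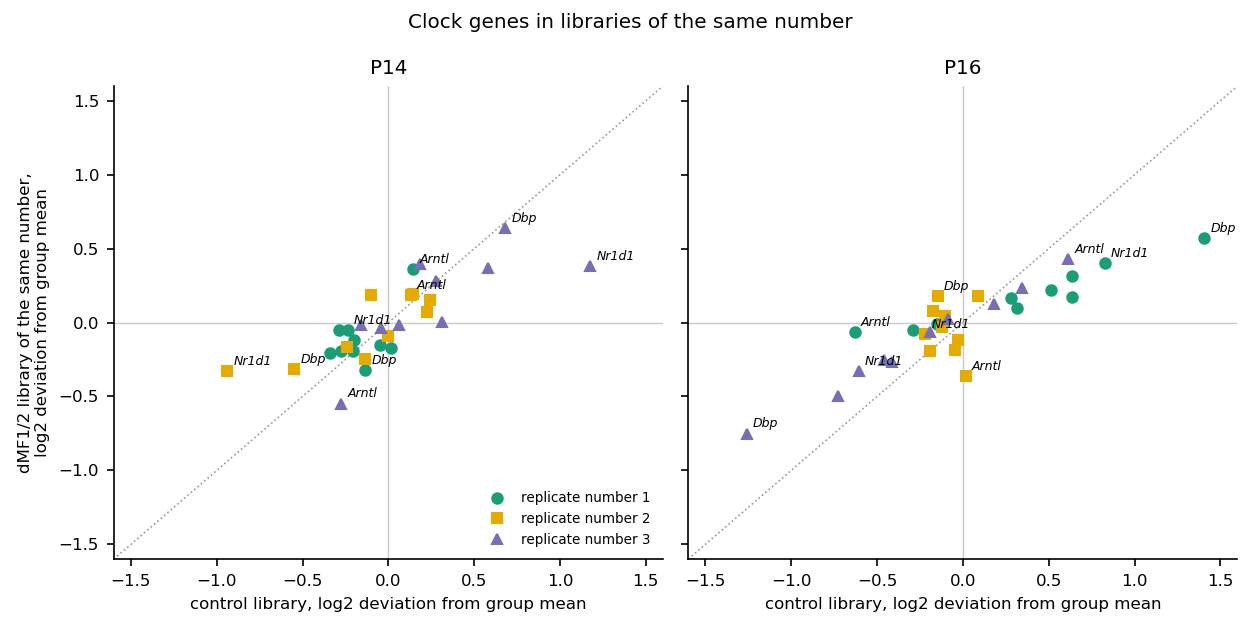
Log2 deviations of the 10 clock genes from their group mean in the dMF1/2 library against those in the control library of the same number, at P14 and P16; each point is a gene and the dotted line marks equal deviations. At P16 replicate numbers 1 and 3 lie at opposite ends for Dbp, and 10 and 9 of 10 genes have the same sign in both genotypes. The share of all genes with the same sign was not computed.

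The order of the numbers could also be compared between the genotypes. At P14 the libraries ranked the same way in control and dMF1/2 mice for 7 of the 10, and for 28.2% of all genes. At P16 it was again 7 of the 10, and 27.2% of all genes. The deviations of the 10 genes from their group means had the same sign in both genotypes for 9, 8 and 9 of the 10 genes in replicates 1, 2 and 3 at P14 and for 10, 6 and 9 at P16. The share of all genes with the same sign was not computed. The correlation of the deviations over the 10 genes was 0.56, 0.81 and 0.76 at P14 and 0.96, -0.07 and 0.995 at P16, and these 10 genes regulate each other and are not independent. Over all genes it was 0.59, 0.39 and 0.30 at P14 and 0.26, 0.29 and 0.31 at P16. In P14 replicate 1 and P16 replicate 2 the 10 genes were thus no more alike than all genes. Between libraries of different numbers the correlation over the 10 genes ran from -0.81 to 0.33 at P14 and from -0.97 to 0.85 at P16, the 0.85 being control replicate 1 with dMF1/2 replicate 2. In P16 replicate 2 the genotypes did not run together, and control replicate 2 was more like dMF1/2 replicate 3 (0.26) than like dMF1/2 replicate 2: Dbp was at 398 normalized reads in control and 512 in dMF1/2, and Arntl at 370 and 212.

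Other genes moved with the numbers. All 5 dermal sheath genes (Acta2, Myh11, Tagln, Cnn1 and Des), which mark contractile cells around the follicle, differed between the numbers on both days, with limma's adjusted p of 0.0015 to 0.0112 at P14 and of 0.0335 at P16, beside 7.38% and 0.401% of all genes. None of the 5 was called without P14 control replicate 1 at P14, or without either replicate 3 at P16. Their sums were 12213, 26317 and 40170 normalized reads in control and 13836, 32166 and 33946 in dMF1/2 replicates 1 to 3 at P14, and 12557, 28843 and 20566 in control and 11809, 22102 and 18720 in dMF1/2 replicates 1 to 3 at P16. Replicate 1 was thus lowest in all 4 groups, whereas Dbp was highest in replicate 3 at P14 and in replicate 1 at P16. All 4 Y-linked genes differed between the numbers at P14, where their sums were 111 and 102 normalized reads in replicate 2 of control and dMF1/2 mice. At P16 only control replicate 3 was as low, at 126. The Dbp level of P16 control replicate 3 was the lowest and that of Arntl the highest of the series, and P16 dMF1/2 replicate 3, with Y-linked transcripts at 4110 normalized reads, had the lowest Dbp of its group as well. Genes of further lists were called between the numbers as well. At P14, where 7.38% of all genes were called, these were 3 of 10 DP genes (Crabp1, Alpl and Lef1), 2 of 10 temperature response genes (Hspa1b and Hspa1a), 2 of 10 glucocorticoid response genes (Dusp1 and Sgk1) and 2 of 13 immediate early genes (Atf3 and Jund). Of the genes tested, 1 of 8 for keratinocytes (Krt15), 1 of 4 for endothelium (Pecam1) and 1 of 2 for adipocytes (Fabp4) were called as well. So were 1 of 2 for skeletal muscle (Ckm) and 1 of 7 for dividing cells (Top2a). At P16, where 0.401% of all genes were called, they were 1 of 10 DP genes (Fgf7), 2 of 10 temperature response genes (Hsph1 and Hspb1) and 1 of 10 glucocorticoid response genes (Zbtb16). Each of these calls at P14 was lost without control replicate 1, and each at P16 without either replicate 3. The part of any of these cells or responses, or of sex, in the clock gene levels was not tested.

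Clock genes beyond the 10 were read from lists chosen for their roles. Of the 11 partners, limma and edgeR called none between genotypes on either day in the fits without the replicate block. By limma 2 had an unadjusted p under 0.05 at P14 (7.32% of all genes) and 1 at P16 (19.0%). DESeq2, also without the block, called Rorb at P14 (1.55% of all genes) and Bhlhe40 at P16 (8.35%). Rora, which activates Arntl at the ROREs, rose between days in control mice by 0.96 (SE 0.19, limma's adjusted p = 0.010) and was called between numbers at P14 (adjusted p = 0.0285). It was at 1428 to 2402 normalized reads in P14 and 3446 to 4142 in P16 control libraries, which did not overlap. Rorb, of the same family, was at 945 to 1522 normalized reads in control and 544 to 654 in dMF1/2 libraries at P14, a log2 fold change of -1.02 that did not pass with limma (adjusted p = 0.168). Bhlhe40, which competes for E-boxes, differed between genotypes by -0.81 at P16 (SE 0.24, adjusted p = 0.111). Npas2, a relative of Clock that can replace it, was at 46, 117 and 279 normalized reads in P16 control replicates 1 to 3, the reverse of the order of Dbp. Nfil3, which represses D-box genes, and Bhlhe41 and Ciart, which repress the clock, were not called by limma in any comparison; DESeq2 called Nfil3 between days in control mice (19.2% of all genes) and between numbers at P16 (2.89%).

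Of the 16 genes whose products modify clock proteins, none was called between genotypes by limma, DESeq2 or edgeR without the replicate block, with 0 at an unadjusted p of 0.05 at P14 and 3 at P16, where 19.0% of all genes did so. Among them the deacetylase gene Sirt1 rose between days by 0.66 in control mice (limma's adjusted p = 0.0182) and by 0.62 in dMF1/2 mice (adjusted p = 0.0381). Usp2 was called between numbers at P14 (adjusted p = 0.0188). Among the 6 outputs, Nampt (0.51, adjusted p = 0.0288) and Cdkn1a (0.99, adjusted p = 0.0449) rose in control mice, and Por and Wee1 were called between numbers at P14 (adjusted p = 0.0208 and 0.0363). The medians of the partners, modifiers and outputs were 0.49, 0.05 and 0.68 on the log2 scale between days in control mice, beside 0.01 over all genes.

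Outside the 10, the 2 genes most like Dbp were other clock genes. The ranking was made among 10238 genes that averaged 100 normalized reads or more, with the 10 themselves left out. In it the deviations of Tef from the 4 group means were the most alike over the 12 libraries (r = 0.99), and those of Hlf came next (r = 0.95). Tef and Hlf encode the other PAR-bZIP factors, which bind the same D-boxes as the product of Dbp. Tef was at 2097, 1912 and 2629 normalized reads in control and 2254, 2270 and 2736 in dMF1/2 replicates 1 to 3 at P14, and at 4432, 2870 and 2031 in control and 4009, 3473 and 2681 in dMF1/2 replicates 1 to 3 at P16. Hdgf (r = 0.94), Tbl1xr1 (0.93) and Minpp1 (0.92) followed in this ranking, and Sdk1 (-0.97), Vcl (-0.96) and Grk5 (-0.96) were the most opposite. Again outside the 10, the genes most like Arntl were Grk5 (0.95), Myo1e (0.93), Nedd4l (0.93), Kcnn3 (0.92) and Fzd10 (0.92), and Cpsf2, Gbas and Manba (each -0.92) were the most opposite. Grk5 thus stood on opposite sides of Dbp and Arntl. Among the 10 themselves, the deviations of Arntl were opposite to those of Per3 (r = -0.93), Dbp (-0.92) and Per2 (-0.91), and those of Dbp ran with Per3 (0.96), Per2 (0.93) and Nr1d2 (0.91).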

How the data were processed

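RNA of sorted DP cells was sequenced by the authors as 61-base single reads after depletion of ribosomal RNA. Trimming was with Trimmomatic, mapping with Tophat (version 2) against mm10, counting per Ensembl gene (GRCm38.p4) with HTSeq-count and normalization with DESeq2. The deposited signal values are reads divided by size factors, scaled within each day; every value was a whole multiple of the value of 1 read (100% within a tolerance of 0.01), so whole reads were recovered. The deposited tables also hold the authors' own DESeq2 comparison (log2 fold changes, a test score and p-values), which was not used. Other ages of the study were not analysed here.

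The 10 genes and all lists were chosen with earlier results of these data known. Named were the 10 in every comparison, up to 3 called genes per list and comparison with the lowest adjusted p, 8 further clock and stress genes, and the genes most like Dbp and Arntl; Rorb, Bhlhe40, and the dermal sheath and Y-linked genes beyond the 3 were chosen after their values were seen. Tests used limma 3.58.1 in R 4.3.3 on log2(normalized reads + 1), for genes averaging 10 or more, Benjamini-Hochberg adjustment over all genes and a threshold of 0.05. Fold changes are on that scale. Genotypes were compared within a day on the deposited scaling, days in 1 fit of 4 groups after scaling the 12 libraries together by median of ratios (the scale of the levels printed), and numbers by a moderated F-test with genotype as covariate. Each replicate is a single mouse, as the study states. What mice of the same number shared is not given in the sources used here. The replicate block rests on the likeness of their libraries. Their deviations from group means, over all genes, correlated at 0.586, 0.389 and 0.304 (P14) and 0.256, 0.293 and 0.311 (P16). edgeR 4.0.16 and DESeq2 1.42.0 were run on the recovered reads as alternatives, with the replicate block, pseudocounts of 0.1 and 10, other filters, TMM scaling, joint or separate fits and each library left out. For the tests of numbers, DESeq2, edgeR, the joint fit and left-out libraries were added after seeing the data. Scripts were tested on simulated reads. Promoter motifs were searched in RefSeq windows. Some called genes of the lists are not reported here.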

Additional observations from a re-analysis of the deposited data

How the results depend on the processing

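None of the alternative settings called any of the 10 clock genes between genotypes at P14 or between days in dMF1/2 mice. At P16 the replicate block called 2 genes (Per1 and Nr1d1), and it changed no other call among the genotype and interaction tests; it was not applied between days, since the numbers are nested in days. The call of Nr1d2 between days in control mice was the 1 of 10, and edgeR and the fit of the compared libraries only called 0; leaving out 1 library gave 0 to 1. Between numbers at P14, where 2 genes were called, TMM scaling, edgeR and the filter of 10 reads in every library called 4 and left-out libraries 0 to 5. The joint fit also called 2, with Nr1d1 in place of Dbp. Among the 14 other settings, Nr1d1 gained a call in 10 and Per2 in 5. Between numbers at P16, DESeq2 called 5 and the joint fit 1, and left-out libraries gave 0 to 6. The cause was not tested.

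Small log2 fold changes turned sign: at P14 Clock (-0.0046 with DESeq2, -0.0033 with edgeR) and Nr1d2 (-0.026 and -0.025), at P16 Dbp (-0.26 and -0.27), and between days in dMF1/2 mice Arntl (-0.010 with edgeR). With 1 library left out, the genotype difference at P14 ran from -0.13 to 0.12 for Clock, -0.075 to 0.15 for Cry2, -0.38 to 0.28 for Dbp, -0.76 to 0.30 for Nr1d1 and -0.17 to 0.30 for Nr1d2. At P16 it ran from -0.093 to 0.073 for Clock, -0.16 to 0.093 for Cry2, -0.59 to 0.75 for Dbp, -0.30 to 0.16 for Nr1d2, -0.27 to 0.28 for Per2 and -0.062 to 0.62 for Per3. Between days in control mice it ran from -0.18 to 0.45 for Arntl, -0.046 to 0.27 for Cry1, -0.035 to 0.25 for Cry2, -0.26 to 1.07 for Dbp and -0.13 to 0.55 for Per3, and in dMF1/2 mice from -0.25 to 0.20 for Arntl and -0.027 to 0.11 for Cry2. The genotype difference of log2 Dbp minus Arntl ran from -0.35 to 0.72 at P14 and -0.48 to 1.47 at P16, and the day difference from -0.70 to 1.25 in control and 0.18 to 1.12 in dMF1/2 mice.

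Of the other named calls, those of Rora between days in control mice, and of Alpl and Plin1 between days in control mice and between genotypes at P16, held in every setting, while Sirt1 between days lost its call in 3 of 14 settings in control and 5 of 14 in dMF1/2 mice, Nampt and Cdkn1a in 5 of 14 each, and Usp2, Por, Wee1 and Rora between numbers in 2 of 14 each (without replicate 1 of either genotype).

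Over all genes, DESeq2 called 207 genes between genotypes at P14 and 1123 at P16, against 7 and 582 with limma, and the block called 224 and 1403. At P14 pseudocount 10 called 10 and the joint fit 11. Between days, the fit of the compared libraries only called 789 in control and 330 in dMF1/2 mice, against 1951 and 778, and DESeq2 called 1341 in dMF1/2 mice. Between numbers at P16, DESeq2 called 389 genes against 54. Left-out libraries gave 0 to 18 genes at P14, 149 to 684 at P16, 693 to 1945 and 257 to 678 between days in control and dMF1/2 mice, and 18 to 1538 and 3 to 465 between numbers at P14 and P16. The lowest level of any of the 10 genes in a library was 183 normalized reads (Dbp), so all 10 were well above the minimum of 10.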

Other observations

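Genes that respond to temperature and to glucocorticoids, signals that also reset or entrain clocks in tissues, moved between days in control mice. In control mice 7 of 10 temperature response genes rose from P14 to P16 by limma's test, beside 6.26% of all genes, among them Hspa8, which encodes a constitutive chaperone (log2 fold change 1.03, adjusted p = 0.0141), Hsph1 (1.21, adjusted p = 0.0162) and Dnajb1 (0.97, adjusted p = 0.0258). In dMF1/2 mice limma called Hsph1 (1.25, adjusted p = 0.0236), with 7 of the 10 at an unadjusted p of 0.05 (22.8% of all genes), and DESeq2 called 6 (10% of all genes). The calls were fragile: in control mice none of the 10 was called without P14 control replicate 1, P14 control replicate 2 or P16 control replicate 1, and 1 was in the fit of the control libraries only, and in dMF1/2 mice Hsph1 lost its call in 5 of 14 settings (adjusted p = 0.051 to 0.104). The 10 genes summed to 31161 to 62076 normalized reads in P14 control and 69719 to 114847 in P16 control libraries, and to 27234 to 36334 in P14 and 46908 to 85767 in P16 dMF1/2 libraries, so that the days did not overlap in either genotype. The cold-induced gene Cirbp was lower at P16 by -0.61 in control mice without passing (adjusted p = 0.0514).

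Of 10 glucocorticoid response genes, 6 rose between days in control mice, beside 6.26% of all genes, among them Klf9 (0.91, adjusted p = 0.0082), Fkbp5 (1.69, adjusted p = 0.0110) and Tsc22d3 (0.86, adjusted p = 0.0140) by limma's test. The count was 3 without P14 control replicate 1 or P16 control replicate 1 and 1 in the fit of the control libraries only, in which Klf9 remained called. In dMF1/2 mice limma called none of the 10, with 4 at an unadjusted p of 0.05 (22.8% of all genes), edgeR none and DESeq2 1 (Tsc22d3). Fkbp5 differed between days by 0.44 in those mice (adjusted p = 0.498), and the interaction had a value of -1.26 and an adjusted p of 1, so that a difference between genotypes in this change was not called. Of 13 immediate early genes, Atf3 (1.05, adjusted p = 0.0309) and Btg2 (1.02, adjusted p = 0.0311) rose in control mice, and each lost its call in some settings (6 of 14 for Atf3 and 4 of 14 for Btg2). Fos, of the same list, differed by 0.46 and did not pass (adjusted p = 0.153). Tissue dissociation and sorting are not described separately for the 2 days, and their part in these differences was not tested.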
